A study of Mus musculus with 18 samples.

Results

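Inhibin, activin, follistatin and anti-Müllerian hormone are secreted proteins of the TGF-β family and its antagonists, and the genes for them and for the AMH receptor are described here in mouse oocyte libraries. The 6 genes were taken by symbol from the deposited TPM table: Inha, Inhba, Inhbb, Fst, Amh and Amhr2, out of 28252 genes in that table and 53715 in the count table. The data are 18 bulk RNA-seq libraries in 6 groups of 3. Oocytes of primordial follicles, oocytes of primary follicles and MII oocytes (ovulation-stage eggs arrested in the second meiotic division) were each taken from sham and NTY groups of C57Bl/6j x CBA/J mice. The labels do not say what NTY is, how old the mice were, or whether libraries of a group came from separate animals, so the p-values below measure only the spread between these libraries.

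The 12 libraries of primordial and primary follicles came from laser-microdissected oocytes, with RNA pooled over the caps of a stage and amplified, whereas the 6 MII libraries came from collected oocytes by Smart-seq II. This assignment was read from the labelled protocol, so a difference between MII oocytes and the rest cannot be told apart from one of library method. Total counts were 15149564 to 29205503 in the microdissected libraries and 8652089 to 9978830 in the MII libraries. A count of 0 allows up to 3 counts, which is 0.103 to 0.198 CPM (counts scaled to library size) in the former and 0.301 to 0.347 CPM in the latter, for counting error only. The microdissected libraries were uneven, with 6147 to 13755 genes having a count. The primordial NTY replicate 3 library went against its oocyte label: the summed level of 12 oocyte markers was 1.70 CPM there, against 53.2 to 1350.0 CPM in the other 11 microdissected libraries and 7397 to 10614 CPM in MII oocytes. Fold changes of the 6 genes that rest on that library are therefore also given without it, whereas correlations are given with all libraries only. In all 12 microdissected libraries the summed level of 6 stroma markers, 1376 to 17910 CPM, exceeded the oocyte sum. Most of it came from the collagen genes Col1a1, Col1a2 and Col3a1, with at least 8266, 10911 and 1979 counts. Dcn, Lum and Pdgfra had at most 2261, 142 and 3198 counts. In primordial sham replicate 2 these had 68, 11 and 441 counts, against 21420 for the oocyte marker Dazl. Levels below are those of whole libraries named by their labels and cannot be taken as those of oocytes alone. The library codes of primary NTY replicates 2 and 3 are alike, and these 2 libraries may come from the same material.

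Inhibins are dimers of the α subunit encoded by Inha with a β subunit encoded by Inhba (βA) or Inhbb (βB), whereas activins are dimers of β subunits alone. Activins signal through type II and type I activin receptors to Smad2 and Smad3, inhibins oppose them, and follistatin, encoded by Fst, binds activins and neutralises them. AMH acts through its own type II receptor, AMHR2, and the Smad1, Smad5 and Smad8 branch. In the ovary these genes are best known from granulosa cells, the somatic cells around the oocyte, where inhibin restrains FSH release from the pituitary and AMH from growing follicles restrains the start of growth in primordial follicles.

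All 6 genes are protein-coding and lie in GRCm38, by GENCODE M21, at chr1:75507077-75510366 (Inha, plus strand), chr13:16011851-16031621 (Inhba, plus strand), chr1:119415465-119422248 (Inhbb, minus strand), chr13:114452290-114458951 (Fst, minus strand), chr10:80805243-80807648 (Amh, plus strand) and chr15:102445367-102454633 (Amhr2, plus strand). RefSeq promoter windows on GRCm38.p6 were listed for 4 of the 6 genes, but that of Inha did not match the gene's start given above. The windows of Inhba and Amhr2 are shown, because Amhr2 was the second most abundant gene of the group over the microdissected libraries and Inhba the least. They cover the 250 bases before each start, chr15:102445117-102445366 for Amhr2 and chr13:16011601-16011850 for Inhba, both on the plus strand. Capitals mark the letters AAGGTCA, a binding motif of the nuclear receptor NR5A family, in Amhr2 and TATAAA, the letters of the TATA box motif, in Inhba. These were also the listed windows in which a motif was found. Whether either match is used was not tested.
Amhr2: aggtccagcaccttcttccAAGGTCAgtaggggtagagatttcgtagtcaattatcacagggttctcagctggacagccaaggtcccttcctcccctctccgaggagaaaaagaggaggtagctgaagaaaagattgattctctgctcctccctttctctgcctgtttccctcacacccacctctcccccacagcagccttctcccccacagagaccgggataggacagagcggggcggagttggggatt
Inhba: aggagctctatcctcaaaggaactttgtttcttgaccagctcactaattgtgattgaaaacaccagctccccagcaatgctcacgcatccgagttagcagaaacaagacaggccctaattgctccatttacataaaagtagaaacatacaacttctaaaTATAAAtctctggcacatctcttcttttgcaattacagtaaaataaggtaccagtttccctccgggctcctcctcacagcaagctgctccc
The AAGGTCA match began at base -231 and the TATAAA match at base -91, counted from the start. Searched on both strands, AAGGTCA was present in 4.08% and TATAAA in 12.4% of the 32851 windows of this length. Neither was found in the Inhbb window, nor in the window listed for Inha. The latter, chr1:75507359-75507608, lies inside the gene as placed above, so it says nothing about the bases before that start.

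Inha, the inhibin α subunit, was by far the most abundant of the 6 genes in the microdissected libraries, with a median of 505 TPM (a level scaled to library size and transcript length). The medians of the others were 61.9 TPM for Amhr2, 2.14 TPM for Amh, 0.239 TPM for Fst, 0.147 TPM for Inhbb and 0 TPM for Inhba. Inha had the highest TPM of the group in 10 of these 12 libraries. The exceptions were primordial sham replicate 1, where Inhba led with 9.69 TPM, and primordial sham replicate 2, where Fst led with 70.1 TPM. At least 1 count was present in 12 of 12 libraries for Amh, in 11 for Inha and Amhr2, in 8 for Fst, in 7 for Inhbb and in 5 for Inhba.

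**Figure D1:**
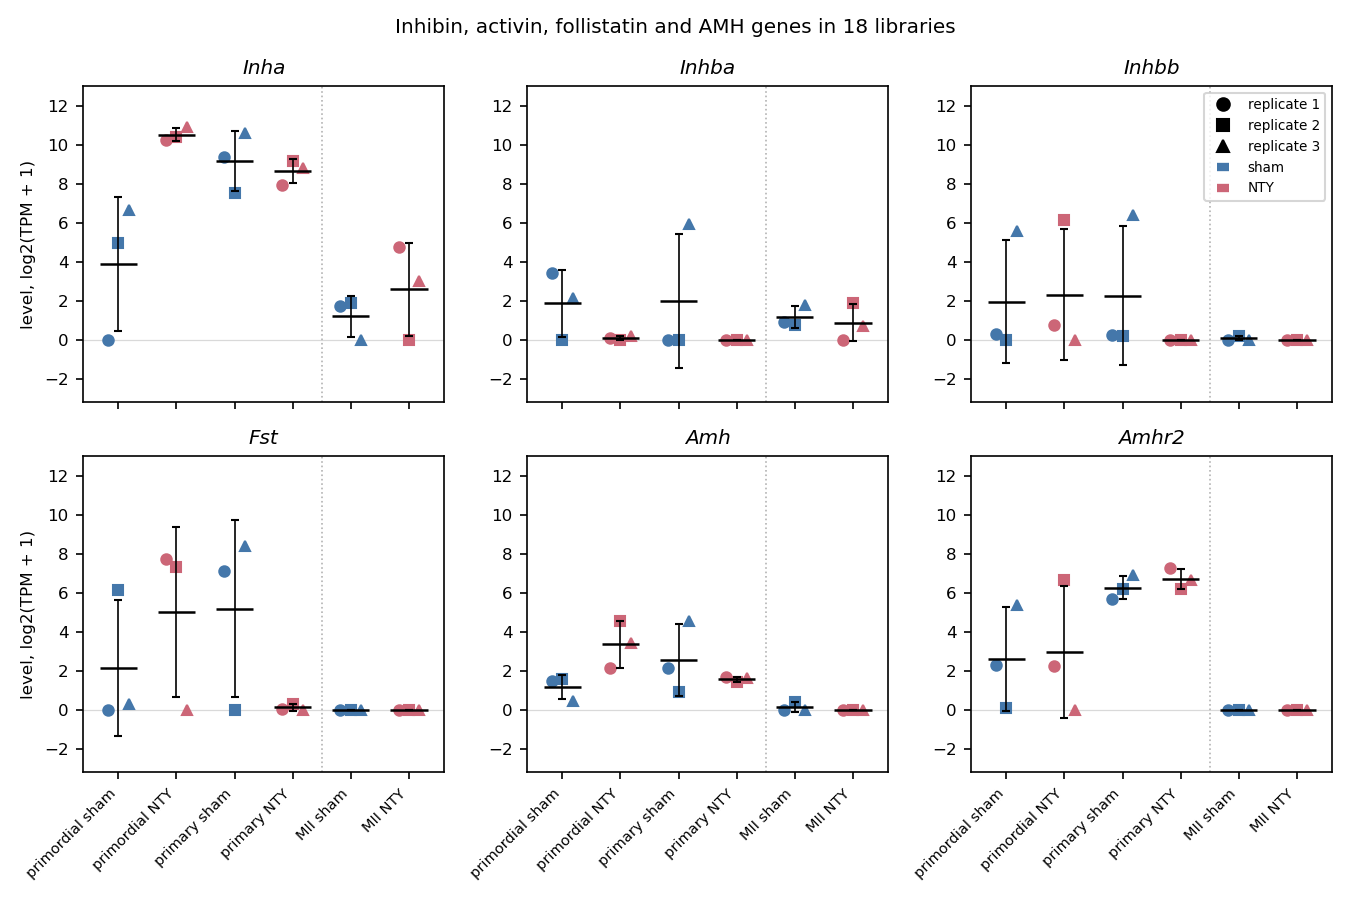
Level of each gene in every library, as log2(TPM + 1), by stage and treatment. Points are libraries (circle, square and triangle for replicates 1, 2 and 3), horizontal lines are group means and bars are SDs of 3 libraries; the dotted line parts microdissected from MII libraries. Inha was low in primordial sham libraries (0 to 99.6 TPM) and high in primordial NTY libraries (1218 to 1914 TPM), while Inhba, Inhbb and Fst were near 0 in most libraries and high in a few.

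In the libraries labelled as oocytes of primordial follicles, Inha was at 0, 30.2 and 99.6 TPM in sham replicates 1 to 3. It was at 1218, 1321 and 1914 TPM in NTY replicates 1 to 3. The raw counts behind these levels were 0, 379 and 946 in sham and 12042, 13831 and 22265 in NTY. Every NTY library was thus above every sham library, and the groups did not overlap, as was the case for 5.73% of genes that reached 10 counts in 3 or more of these 6 libraries. In those labelled as oocytes of primary follicles the levels were 659, 183 and 1546 TPM in sham and 246, 564 and 446 TPM in NTY. The NTY libraries thus lay within the range of sham. In MII oocytes Inha was at 2.25, 2.70 and 0 TPM in sham and at 25.6, 0 and 6.99 TPM in NTY, with overlapping groups.

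Ordered by group mean, Inha was at 1484 ± 376 TPM (SD, n = 3) in primordial NTY, 796 ± 692 in primary sham, 419 ± 161 in primary NTY, 43.3 ± 51.1 in primordial sham, 10.9 ± 13.2 in MII NTY and 1.65 ± 1.44 in MII sham. Neighbours in this order overlapped in their libraries, except primary NTY and primordial sham, whose libraries were apart. Because these are bulk libraries, fewer cells of a type and less RNA per cell cannot be told apart.

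NTY was compared with sham at each stage by edgeR's quasi-likelihood test over all genes. In primordial follicles the log2 fold change of Inha was 5.32 (approximate SE 2.07), higher in NTY, with an unadjusted p of 0.0135 and a Benjamini-Hochberg adjusted p of 0.405, so that it did not pass the threshold of 0.05. Without primordial NTY replicate 3 it was 4.67, with an adjusted p of 0.506 in the same edgeR test. DESeq2 called it, with a log2 fold change of 6.06 and an adjusted p of 0.0160, and over all alternatives, including each library left out, the adjusted p ran from 0.0129 to 0.9999. The call therefore depends on the tool. In primary follicles the edgeR log2 fold change was -0.33 (approximate SE 1.72, adjusted p = 1) and turned to 0.14 with RLE scaling or DESeq2, and in MII oocytes 2.71 (approximate SE 1.96, adjusted p = 0.9998).

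Between the stages Inha differed in opposite directions in the 2 treatments, in library values. All 3 primary sham libraries lay above all 3 primordial sham libraries, as for 14% of genes, with an edgeR log2 fold change of 3.86 (approximate SE 1.93, adjusted p = 0.542), higher in primary follicles. In NTY all 3 primary libraries lay below all 3 primordial libraries, as for 5.06% of genes, with a log2 fold change of -1.79 (approximate SE 1.78, adjusted p = 0.827 by edgeR), and of -1.11 without primordial NTY replicate 3. The difference of the NTY effect, primary minus primordial, was -5.65 on the log2 scale (approximate SE 2.61, unadjusted p = 0.0354, adjusted p = 0.364 by edgeR), which did not pass the threshold. Without primordial NTY replicate 3 it was -4.87 (adjusted p = 0.490 by edgeR). Averaged over treatments, the stage difference was 1.03 (approximate SE 1.23, adjusted p = 0.890 by edgeR).

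**Figure D2:**
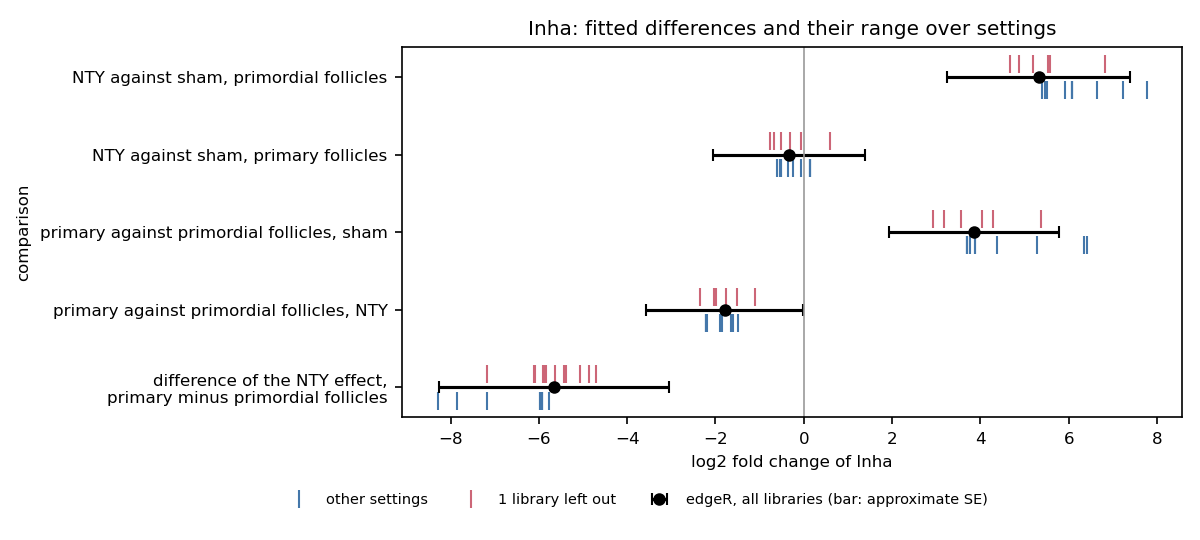
Log2 fold change of Inha in 5 comparisons. Black points and bars are the edgeR estimate with all libraries and its approximate SE, blue ticks are other processing settings and red ticks leave out 1 library each. The primordial NTY difference lay between 4.67 and 7.76 under every setting shown, while the primary NTY difference lay on both sides of 0, from -0.77 to 0.60.

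The β subunits were present in few libraries. Inhba, which gives activin A and inhibin A, had counts of 292, 0 and 139 in the primordial sham libraries, of 2, 0 and 7 with NTY, of 0, 0 and 3090 in primary sham libraries and of 0 in all 3 with NTY. Its highest level was 60.2 TPM, in primary sham replicate 3, and the next was 9.69 TPM. Inhbb, which gives activin B and inhibin B, had counts of 4, 0 and 1270 in the primordial sham libraries, of 19, 2103 and 0 with NTY, of 5, 4 and 2786 in primary sham libraries and of 0 in all 3 with NTY.
Each β subunit thus exceeded 100 counts in 3 of 12 libraries and stayed at or below 19 counts in the other 9. High Inha was found without a comparable β subunit: in primordial NTY replicate 3 it was at 1914 TPM, with Inhbb at 0 and Inhba at 0.139 TPM, and in primordial NTY replicate 1 at 1218 TPM, with Inhbb at 0.666 and Inhba at 0.0467 TPM.
Inhbb fitted log2 fold changes were 0.31 (approximate SE 3.05, adjusted p = 0.993 by edgeR) for NTY in primordial follicles and 0.48 (approximate SE 3.06, adjusted p = 1) for primary against primordial follicles in sham. The first ran from -5.57 to 7.62 and the second from -6.90 to 7.79 when single libraries were left out. The lowest value of the first came without primordial NTY replicate 2 and that of the second without primary sham replicate 3.
For NTY in primary follicles the edgeR adjusted p was 0.4997 for both β subunits. No fold is given where a group was at 0, and of the sham libraries only replicate 3 was far above the floor.

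Fst, the activin antagonist, alternated between high and near-absent libraries within groups. Its counts were 0, 2014 and 5 in the primordial sham libraries, 4814, 3825 and 0 with NTY, 3252, 0 and 9134 in the primary sham libraries and 1, 6 and 0 with NTY. In TPM the 5 high libraries lay between 70.1 and 337, and the 7 others at or below 0.249. All 3 primary NTY libraries were among the low ones, as was 1 of 3 primary sham libraries, so these groups overlapped.
The edgeR log2 fold change of Fst was 2.24 (approximate SE 2.90, adjusted p = 0.870) for NTY in primordial follicles and 2.37 (approximate SE 2.92, adjusted p = 1) for primary against primordial follicles in sham. With single libraries left out these ran from 1.48 to 9.82 and from 1.05 to 9.86. The highest values came without primordial sham replicate 2, the only one of its group with more than 5 counts. For NTY in primary follicles the adjusted p of Fst was 0.4997 by edgeR.

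Amh, the hormone itself, was low but present in every microdissected library. Its levels were 1.78, 1.97 and 0.372 TPM in primordial sham, 3.39, 22.1 and 9.79 TPM in primordial NTY, 3.47, 0.871 and 22.3 TPM in primary sham and 2.18, 1.68 and 2.09 TPM in primary NTY. The counts behind them were 14, 28 and 4, then 38, 262 and 129, then 40, 11 and 300, then 29, 20 and 28. In primordial follicles every NTY library was above every sham library, as for Inha, and in NTY every primary library was below every primordial one. In primary follicles the groups overlapped.
None of these differences passed the edgeR test. The log2 fold change of Amh for NTY was 3.15 (approximate SE 2.79, adjusted p = 0.751) in primordial and -1.60 (approximate SE 2.63, adjusted p = 1) in primary follicles. The latter was 0.46 without primary sham replicate 3. For primary against primordial follicles it was 2.37 (approximate SE 2.70, adjusted p = 1) in sham, and 0.30 without primary sham replicate 3, and it was -2.38 (approximate SE 2.70, adjusted p = 0.865) in NTY by edgeR, and -2.14 without primordial NTY replicate 3.
The gene Sf3a2, a splicing factor gene on the same strand, lies 319 bases from Amh and had 0 to 5562 counts. In primordial NTY replicate 3 Sf3a2 had 0 counts and Amh 129. Both had many counts in primary sham replicate 3 (4930 for Sf3a2, 300 for Amh) and primordial NTY replicate 2 (1391 and 262). In primary NTY replicate 3 they had 5562 and 28. Whether reads of Sf3a2 were counted for Amh was not tested.

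Amhr2, the type II receptor of AMH, had at least 50.5 TPM in every primary follicle library. It was at 50.5, 73.3 and 119 TPM in primary sham and at 152, 73.3 and 98.9 TPM in primary NTY, so that the treatments overlapped. In primordial follicles it was at 3.91, 0.0586 and 41.1 TPM in sham and at 3.72, 101 and 0 TPM in NTY, each group holding 1 high library and 2 low ones. In sham all primary libraries were above all primordial libraries, whereas in NTY primordial replicate 2 lay within the primary range.
Its edgeR log2 fold change between the stages was 2.21 (approximate SE 2.85, adjusted p = 1) in sham, 2.13 (approximate SE 2.84, adjusted p = 0.894) in NTY and 2.17 (approximate SE 2.01, adjusted p = 0.810) averaged over both, higher in primary follicles. Without primordial sham replicate 3 the sham value was 5.18, and without primordial NTY replicate 2 the NTY value was 6.12, these being the high primordial libraries. Without primordial NTY replicate 3 the NTY value was 1.61. For NTY it was 0.94 (approximate SE 2.75, adjusted p = 0.960) in primordial and 0.86 (approximate SE 2.75, adjusted p = 1) in primary follicles. The primordial value was -3.05 without NTY replicate 2. Without primordial NTY replicate 3 the edgeR log2 fold changes for NTY in primordial follicles were 1.46 for Amhr2, 2.85 for Amh, 2.81 for Fst and 0.83 for Inhbb, with adjusted p from 0.852 to 1. No Amhr2 count was present in any MII library.

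**Figure D3:**
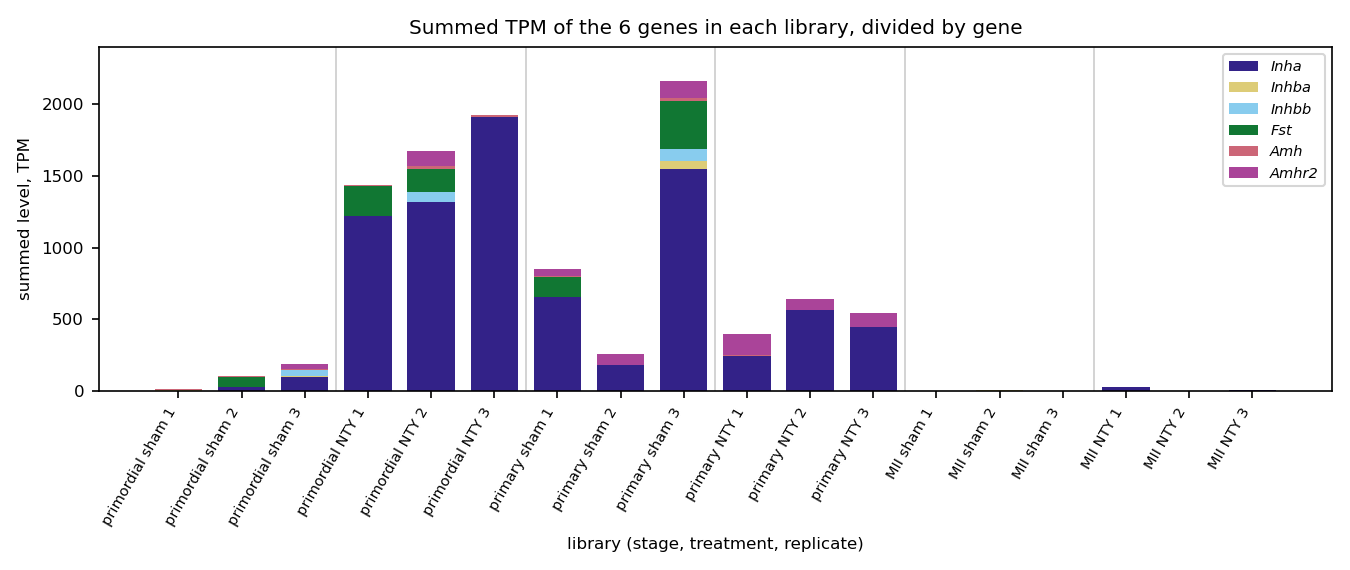
Summed TPM of the 6 genes in each library, with each gene's part in its own colour. The sum was 15.6 to 191 TPM in primordial sham and 1438 to 1924 TPM in primordial NTY libraries, mostly Inha, and the MII libraries were near 0.

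In MII oocytes only Inha and Inhba had 10 or more counts, Inha in 4 and Inhba in 5 of 6 libraries, and the other 4 genes were at or near 0. Inhba was at 0.852, 0.667 and 2.45 TPM in sham and at 0, 2.66 and 0.646 TPM in NTY and led the group in MII sham replicate 3 and MII NTY replicate 2, where Inha was at 0. The sham and NTY libraries overlapped, with a log2 fold change of -0.31 (approximate SE 1.59, adjusted p = 0.9998 by edgeR). Inhbb and Amh each had 2 counts in 1 MII sham library and 0 in the others, and Fst and Amhr2 had none. Detection there was limited to the floor given above.

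Over the group, 0 of 6 genes passed an adjusted p under 0.05 by edgeR in any comparison of microdissected libraries, and 0 of the 2 tested in MII oocytes. Here the stage-by-NTY difference is the NTY effect in primary minus that in primordial follicles. Of all genes tested by edgeR, 0.0095% passed for NTY in primordial follicles, for the stage difference in sham and for the stage-by-NTY difference, and 0% in the other comparisons. At an unadjusted p under 0.05, 1 member passed for NTY in primordial follicles (Inha), 3 for NTY in primary follicles (Inhba, Inhbb and Fst), 2 between the stages of NTY (Inhbb and Fst), 0 between those of sham, 1 for the stages averaged (Inhbb), 3 for the stage-by-NTY difference (Inha, Inhbb and Fst) and 0 in MII oocytes. At that cut the shares of all genes tested were 10.9% and 8.15% for NTY in primordial and primary follicles, 9.28%, 9.97% and 10.8% between the stages of sham, of NTY and averaged, 11.8% for the stage-by-NTY difference and 2.29% in MII oocytes. All of those past p 0.05 in primary follicles or between stages in NTY rest on primary NTY libraries at or near 0 counts.
DESeq2 called 1 member for NTY in primordial follicles, where it called 9.2% of all genes, and 2 (Fst and Inhba) for NTY in primary follicles, where it called 5.67%. It called 2 (Fst and Inhba) for the stages in NTY, against 8.44% of all genes. The Inhba call there set counts of 2, 0 and 7 in primordial NTY against 0 in every primary NTY library, all at or near the floor. DESeq2 called 1 (Inhba) both for the stages averaged, against 6.72%, and for the stage-by-NTY difference, against 8.57%. It called 0 for the stages in sham, against 5.81%, and 0 in MII oocytes, against 0.24%. Without its Cook filter on outlying counts, DESeq2 also called Inhbb in primary follicles and between the stages in NTY and averaged, and Fst and Inhbb in the stage-by-NTY difference. The shares of all genes then called were 11.8% and 6.9% for NTY in primordial and primary follicles, 7.45%, 10.9% and 9.95% between the stages of sham, of NTY and averaged, 11.6% for the stage-by-NTY difference and 0.242% in MII oocytes. The other tools and filters called 0 members in every comparison.
Groups were also compared in CPM over genes with at least 10 counts in at least 3 of the libraries compared. Of such members, 2 of 5 (Inha and Amh) were higher in every NTY than in every sham library of primordial follicles, as were 5.73% of such genes. In sham, 2 of 5 (Inha and Amhr2) were higher in every primary than in every primordial library, as were 14% of such genes. In NTY, 2 of 3 (Inha and Amh) were lower in every primary library, as were 5.06% of such genes. In primary follicles Inhbb was lower in every NTY library, with too few counts to enter that background, in which 13.5% of genes were lower, and in MII oocytes no member was apart, against 8.4% of genes in either direction.

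The summed granulosa markers moved with part of these values, while single markers differed from each other. The summed level of 10 granulosa markers was 761, 900 and 3377 CPM in primordial sham replicates 1 to 3 and 1496, 4304 and 3864 CPM in primordial NTY, and it was 1589 to 2315 CPM in primary sham and 807 to 2904 CPM in primary NTY. In MII oocytes it was 128 to 262 CPM, with the defining genes Foxl2 and Wt1 at 0. Other listed markers were present in all 6 MII libraries, among them Cyp19a1 with 250 to 655 counts, Esr2 with 311 to 666, Gata4 with 147 to 751 and Nr5a2 with 129 to 316. Esr2 had a median of 41.2 TPM in MII oocytes and 1.08 TPM in the microdissected libraries. Wt1 had 3998 to 66312 counts in all 12 microdissected libraries, whereas Foxl2 ranged from 0 to 18125 counts, and Fshr was at 0 in 10 of 12 and Cyp19a1 in 11 of 12. Foxl2 did not follow Inha in primordial follicles, with 0, 8442 and 17852 counts in sham and 22, 10433 and 73 in NTY. Gja1 did, with 2029, 1836 and 3660 counts in sham and 18627, 15507 and 27634 in NTY. Stroma markers (6 genes) summed to 1376 to 17910 CPM in microdissected libraries, mostly from the collagen genes, and to 0 to 2.91 CPM in MII oocytes.
The correlation of Inha with the granulosa sum, as log2(CPM + 1) over the 12 microdissected libraries, was r = 0.60, against 0.51 for Inhbb, 0.42 for Amh, 0.27 for Amhr2, 0.015 for Fst and -0.044 for Inhba. With the oocyte sum r was 0.51 for Amhr2, 0.21 for Fst, 0.18 for Inhbb, 0.076 for Inhba, -0.22 for Amh and -0.32 for Inha. With the stroma sum it was 0.39 for Inha, 0.13 for Amhr2, -0.044 for Inhbb, -0.074 for Amh, -0.23 for Inhba and -0.43 for Fst. These points share libraries and depth, and the values are descriptions only. Primordial NTY replicate 3 was extreme in them, with an oocyte sum of 1.70 CPM, Inha at 1914 TPM and Amhr2 at 0. The values of r were not computed without that library, so how far they rest on it is not known. The primordial sham library with the highest granulosa sum, replicate 3 at 3377 CPM, had Inha at 99.6 TPM, while primordial NTY replicate 1 with 1496 CPM had 1218 TPM. The part of cell content in these differences was not tested.
The endothelial sum (4 genes) was apart for NTY in primordial follicles, where Inha was apart too. It was at 831, 59.6 and 29.9 CPM in primordial sham and at 1.37, 0.510 and 6.81 CPM in primordial NTY. In primary follicles it was 0.256 to 42.3 CPM in sham and 0.0430 to 12.3 CPM in NTY, so that the stages overlapped in both treatments, in which Inha was apart. Its 831 CPM in primordial sham replicate 1 came from 1 of the 4 genes, Tek (12584 counts). Tek had no count in primordial sham replicate 2, where the sum came almost wholly from Cdh5 (1738 counts). Taken singly, each of the 4 genes overlapped between sham and NTY in primordial follicles. The separation of the endothelial sum was thus made by different genes in different libraries. The theca and luteal sum was also apart for NTY in primordial follicles, at 0 to 0.0948 CPM in sham and 0.333 to 1.57 CPM in NTY. This rested mostly on Hsd3b1, with 0, 0 and 2 counts in sham and 27, 37 and 7 in NTY. Cyp11a1, Cyp17a1 and Insl3 had no count in these libraries. It was at most 10.3 CPM in any microdissected library. Between the stages it was apart in sham, with 0.886 to 10.3 CPM in primary follicles, and overlapped in NTY, with 0.237 to 0.971 CPM in primary follicles. Immune markers summed to at most 33.9 CPM and expanded cumulus markers to at most 0.797 CPM in the microdissected libraries. The part of these markers in the Inha difference was not tested.

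**Figure D4:**
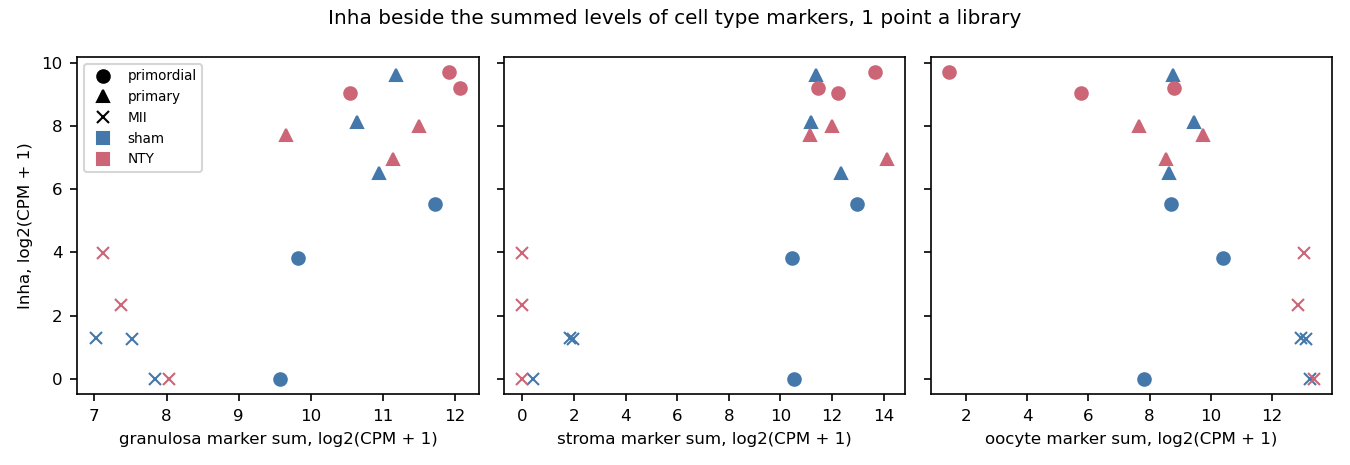
Inha against the summed level of granulosa, stroma and oocyte markers, both as log2(CPM + 1), 1 point a library. The 6 MII libraries stand apart at low granulosa and stroma and high oocyte levels, and the primordial NTY library with the highest Inha has the lowest oocyte sum, 1.70 CPM.

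Genes were ranked by how closely their log2(CPM + 1) followed each member over the 12 microdissected libraries, among about 6833 genes. Inha was close to Nedd4 (r = 0.92) and Extl3 (r = 0.91). Amhr2 was closest to Ccny (r = 0.95), Fem1c (r = 0.94) and Dedd (r = 0.91). For Amh the closest were H2ac7 (r = 0.88), Mfsd2a (r = 0.87) and Gm9531 (r = 0.86). H2ac7 had 4273 counts in primary sham replicate 3, 3642 in primordial NTY replicate 2 and 0 in the other 10 libraries, so that its likeness rests on those 2 libraries, which were also the 2 highest for Amh. The same holds for Mfsd2a, with 1837 and 1296 counts there and at most 31 elsewhere. Gm9531 had 1828 and 8186 counts there and at most 1 elsewhere. Inhba, Inhbb and Fst had too few libraries with 10 counts to be ranked.

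Of the 21 other genes considered of the activin and AMH pathways (ligands and antagonists, receptors and Smads), 17 could be tested in the microdissected and 14 in the MII libraries. By edgeR 0 passed an adjusted p under 0.05 in any comparison. At an unadjusted p under 0.05, 3 passed for NTY in primordial follicles, 1 for NTY in primary ones, 3 and 1 between the stages of sham and of NTY, 4 between the stages averaged, 1 for the stage-by-NTY difference and 0 in MII oocytes. The shares of all genes at this cut were those given above for the members, from 8.15% to 11.8% in the microdissected libraries, so that 1 to 4 of 17 is no result about the list. Their median log2 fold change was -0.37 for NTY in primordial follicles, where that of all genes was 0.12, and 0.30 in primary follicles, where that of all genes was -0.10.
The type II activin receptor genes Acvr2a and Acvr2b had medians of 0.104 and 11.2 TPM over the microdissected libraries and 5.92 and 18.2 TPM in MII oocytes. Acvr2a counts were 0, 1 and 0 in the primordial sham libraries and 141, 8081 and 1 with NTY, so that its group difference rests mostly on 1 library. Bmpr1a, a type I receptor used by AMH, averaged 0.902 CPM in primordial sham and 125 CPM in primary sham, with a log2 fold change of 6.69 (approximate SE 2.97, adjusted p = 0.482 by edgeR).
Smad1 averaged 15.8 CPM in primordial NTY and 0.139 CPM in primordial sham, near the floor of those libraries, so that no fold is given (adjusted p = 0.519 by edgeR). Furin, the protease that processes precursors of this family, averaged 10.1 CPM in primordial NTY and 152 CPM in primordial sham (log2 fold change -4.18, approximate SE 2.57, adjusted p = 0.578 by edgeR). In both genes the libraries of the groups did not overlap. Of the pathway genes with at least 10 counts in at least 3 of the libraries compared, 2 of 12 were apart in either direction for NTY in primordial follicles, against 9.34% of all such genes, 1 of 15 in primary follicles, against 14.9%, and 1 of 14 in MII oocytes, against 8.4%. Between the stages it was 2 of 14 in sham, against 15.3%, and 0 of 12 in NTY, against 8.03%. The genes apart besides Smad1 and Furin were Smad5 in primary follicles (252 CPM in NTY, 117 CPM in sham, log2 fold change 1.55, adjusted p = 1 by edgeR), Smad2 in MII oocytes (48.3 and 74.4 CPM, log2 fold change -0.58, adjusted p = 0.9998) and, with Bmpr1a, Smad7 between the stages in sham (64.7 CPM in primary, 7.66 CPM in primordial follicles, log2 fold change 2.82, adjusted p = 1). Of the mediators, chosen for mention after their values were seen, Smad4, shared by both pathways, and Smad2 and Smad3 had medians of 556, 199 and 185 TPM over the microdissected libraries. They were near-absent in some libraries. Smad4 had 5 counts in primary NTY replicate 2, and Smad3 had 6 in primordial NTY replicate 3. Smad2 had 1 count in primordial NTY replicate 3 and 3 in primary NTY replicate 3.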

How the data were processed

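The files deposited by the authors are raw read counts per gene, in whole numbers and not normalized, and a table of TPM values whose columns each sum to 1000000. The submitters' processing notes name Trim Galore 0.4.1, TopHat2, featureCounts and the build mm10, without parameters; how strand and shared reads were handled is not given in the sources used here. Counts were joined to TPM by Ensembl identifier, of which 53620 of 53715 matched GENCODE M21.

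The counts were fitted in edgeR 4.0.16 (R 4.3.3) with its quasi-likelihood test (robust, TMM, filterByExpr by group, no replicate block, Benjamini-Hochberg over all genes). The 12 microdissected libraries shared a fit of 4 groups, and the 6 MII libraries were fitted alone. The approximate SE is the size of the log2 fold change divided by the root of F. Alternatives used RLE, DESeq2 1.42.0 with and without its Cook filter, limma 3.58.1 with voom and quality weights, other filters, a replicate block, log2(TPM + 1) and log2(TPM + 0.1), and libraries left out or summed. By the rule for named genes, all 6 members were named, with for each comparison up to 2 pathway genes per direction of largest fold change whose libraries did not overlap and whose mean was at least 1 CPM, and for each member with at least 10 counts in at least 6 libraries the 3 genes of highest correlation, of which 1 is not reported here. Members and lists were chosen with earlier results of these data known. The scripts were tested on simulated data, with 200 genes changed by a log2 fold of 2 for NTY in primordial follicles or in MII oocytes. At a low dispersion edgeR recovered 200 of them in each set. At the dispersion of these data it recovered 0 in the microdissected and 60 in the MII set. A count of 0 members called by edgeR is therefore weak evidence of no difference.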

Additional observations from a re-analysis of the deposited data

Results flagged for a closer look

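The stage difference of Inha went in opposite directions in the 2 treatments. Every primary sham library was above every primordial sham library, and every primary NTY library was below every primordial NTY library. The difference between the 2 was -5.65 on the log2 scale, and its own test by edgeR gave an adjusted p of 0.364. The primordial NTY library with the highest Inha level, replicate 3, was also the one with the lowest oocyte marker sum, 1.70 CPM, and without it the difference was -4.87. The part of that library's makeup in the difference was not tested.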

How the results depend on the processing

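The count of members called was 0 in every comparison by edgeR, and also with RLE, voom with quality weights, other filters, TPM, the replicate block, only the groups compared, the summed primary NTY replicates 2 and 3, and each library left out (0 to 0). DESeq2 alone moved it. For NTY in primordial follicles it called 1 member with and without the Cook filter. For NTY in primary follicles it called 2 with the Cook filter and 3 without it, and for the stages in NTY also 2 and 3. For the stages averaged it called 1 and 2, and for the stage-by-NTY difference 1 and 3. The cause was not tested.

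The Inha log2 fold change for NTY in primary follicles turned from -0.33 to 0.14 under RLE and under DESeq2 with and without the Cook filter, and ran from -0.77 to 0.60 with single libraries left out. With single libraries left out, Amh for NTY in primary follicles ran from -2.13 to 0.46, Amhr2 for NTY in primordial follicles from -3.05 to 3.91, Inhbb for NTY in primordial follicles from -5.57 to 7.62, Inhbb between stages in sham from -6.90 to 7.79, and Inhba in MII oocytes from -1.83 to 0.34. Single libraries also moved Amh between stages in sham (0.30 to 2.89), Amhr2 between stages (1.56 to 5.18 in sham, 1.60 to 6.12 in NTY) and Inha between stages (-2.35 to -1.11 in NTY, 0.56 to 1.79 averaged). RLE scaling moved the median log2 fold change of all genes from 0.12 to 0.10 for NTY in primordial follicles and from -0.10 to 0.19 in primary follicles. With voom and quality weights, a change of model and weights, these medians were 0.84 and -1.65. Correlations of same-numbered deviations lay between -0.0644 and 0.0788. In libraries this uneven they cannot show whether equal replicate numbers share an animal, which the labels do not say. With the replicate block 0 members were called. The common dispersion was 3.59 in microdissected and 0.542 in MII libraries, which limits what 3 libraries a group can show.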
